A study of Mus musculus with 24 samples.

Results

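The genes described here encode voltage-gated calcium channel subunits, voltage-gated sodium channel subunits, HCN pacemaker channels, TRP channels and ClC chloride channels and exchangers. They are the genes of the array's annotation that have 1 symbol beginning with Cacn, Scn and a digit, Hcn and a digit, Trpc, Trpm or Trpv and a digit, or Clcn. Of 18193 genes with 1 symbol on the array, 63 matched; 3 were left out by the rule and 60 remained. By symbol these were 22 calcium channel genes, 11 sodium channel genes, 2 HCN genes, 18 TRP genes and 7 ClC genes. The names do not all denote pores. Cacng2, Cacng3, Cacng4, Cacng5, Cacng7 and Cacng8 are named as calcium channel gamma subunits and encode TARPs, auxiliary subunits of AMPA-type glutamate receptors, and Trpc4ap encodes a protein associated with Trpc4.

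Voltage-gated calcium channels open on depolarisation and consist of a pore-forming alpha1 subunit (Cacna1 genes) with auxiliary alpha2delta (Cacna2d) and beta (Cacnb) subunits. In photoreceptors, bipolar cells and pinealocytes, L-type channels carry the calcium entry that serves secretion, and sodium channels of the Scn family carry the action potentials of retinal ganglion and amacrine cells. HCN channels open on hyperpolarisation, TRP channels are cation channels with diverse chemical and physical stimuli, and ClC proteins are chloride channels of the plasma membrane or chloride-proton exchangers of endosomes and lysosomes.

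The study asked what the transcription factor NeuroD1 does in the mature pineal gland and retina of the mouse. All animals were C57BL/6J mice 2 months old, of both sexes, and all carried floxed Neurod1 alleles. Control animals had no Cre (NeuroD1flox/flox::Crx-cre-/-) and conditional knockout (cKO) animals carried Crx-Cre (NeuroD1flox/flox/Crx-cre+/-), in which the Crx promoter drives recombination in photoreceptors and pinealocytes and not in every cell of the tissues. Each tissue was taken at ZT6, the middle of the day, and at ZT20, in the night under dim red light; ZT is hours after lights on. Tissue, genotype and time made 8 groups with 3 arrays each, and every array measured RNA from a pool of 6 pineal glands or 6 retinas on an Affymetrix mouse expression array. The labels call the 3 arrays of a group biological replicates, and do not give the sex of a pool. In such whole-tissue pools, fewer cells of a type and less RNA per cell cannot be told apart.

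Values are the deposited linear signals of the brightest probe set of each gene, in array units, and changes are differences of log2(signal + 16) with their standard error. These standard errors come from limma, which shares the spread across genes. Its prior had 103.6 degrees of freedom in the pineal fit, 8.96 in the retinal fit and 12.5 over both tissues. Pineal standard errors and p-values thus rest mainly on the shared spread, and little on a gene's own pools. A gene passed a test when its adjusted p from limma, with Benjamini-Hochberg adjustment over all genes tested, was under 0.05. A gene entered a test only where its signal was above the array's median on at least 3 of the arrays fitted, which 28 of the 60 genes did in both tissues, 4 in the pineal gland only and 16 in the retina only. The other 12 did in neither tissue and were not tested: Cacng1, Cacng6, Clcn1, Hcn2, Scn10a, Scn11a, Trpc5, Trpc7, Trpm2, Trpm5, Trpm8 and Trpv6. Array medians ranged from 107.1 to 158.8 for pineal RNA and from 107.8 to 183.1 for retinal RNA, so changes that rest on the overall brightness are given under quantile normalisation as well.

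Neurod1 itself stood at 0.585% to 1.68% of the control mean in the cKO pineal pools at ZT6 and at 4.58% to 12.1% in the cKO retinal pools at ZT6. At ZT20 pool 1 was low in both tissues, at 0.621% in the pineal gland and 5.1% in the retina, whereas pools 2 and 3 kept 52.4% and 26.5% in the pineal gland and 49.7% and 49.5% in the retina. The main cKO results at ZT20 are therefore given without pools 2 and 3 as well. That leaves 1 cKO pool at ZT20, which is assumed to vary like the other groups of the fit. In the pineal gland it is the array with the lowest median (107.1). In the retina its 6 skeletal and smooth muscle markers summed to 11329, against 410 and 523 in cKO pools 2 and 3 at ZT20. The same markers summed to 3310 in retinal control pool 2 at ZT6, against 236 and 308 in pools 1 and 3 of that group. In the retinal pools 6 lens markers summed to 19789 to 59795. The part of muscle or lens RNA in the retinal values was not tested. In the pineal pools at ZT6, pool 3 of either genotype had a high signal of the rod transducin gene Gnat1, at 3829.6 in the control and 2234 in the cKO against 72.6 to 1267 in the other 4 pools. Marker genes of pinealocytes (9 genes) summed to 64460 to 75872 in the pineal pools and 32695 to 41476 in the retinal pools. Those of rods (10 genes) summed to 77608 to 96026 in the retinal pools and 25762 to 37035 in the pineal pools. Neither list is thus specific to its tissue, and the sums do not measure purity. No marker of either list was at 0 in any pool.

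Promoter sequences were at hand for 50 of the 60 genes, from RefSeq on GRCm38.p6. Those of Scn7a, Clcn4 and Clcn5 are shown because Scn7a had the largest of the retinal genotype changes that passed at ZT6 and because Clcn5 and, under the 3 other scalings, Clcn4 rose at night in the control pineal gland. Each run is the 250 bases before the annotated start, 5′ to 3′ in the direction of the gene. Capitals mark TAATCC, a core of the sites bound by Crx and Otx2, or TGACGTCA, the full cAMP response element; CAGATG, an E-box of the kind bound by NeuroD1, was searched as well and is not in these runs.
Scn7a: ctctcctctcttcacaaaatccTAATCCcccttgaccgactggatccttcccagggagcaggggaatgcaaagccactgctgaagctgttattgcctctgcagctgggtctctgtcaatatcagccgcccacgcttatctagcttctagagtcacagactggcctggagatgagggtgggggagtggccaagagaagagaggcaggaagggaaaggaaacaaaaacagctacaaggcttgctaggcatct
Clcn4: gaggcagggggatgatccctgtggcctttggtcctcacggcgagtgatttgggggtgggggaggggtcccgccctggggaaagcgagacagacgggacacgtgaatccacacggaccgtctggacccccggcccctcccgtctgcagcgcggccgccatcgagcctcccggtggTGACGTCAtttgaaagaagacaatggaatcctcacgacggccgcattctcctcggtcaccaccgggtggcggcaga
Clcn5: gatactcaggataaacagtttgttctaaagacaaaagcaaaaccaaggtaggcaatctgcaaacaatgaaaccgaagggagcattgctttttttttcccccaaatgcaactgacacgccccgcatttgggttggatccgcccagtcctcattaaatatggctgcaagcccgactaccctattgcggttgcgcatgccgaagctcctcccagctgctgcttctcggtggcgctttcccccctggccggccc
All 3 genes lie on the minus strand, with the printed runs at chr2:66784911-66785160, chr7:7299558-7299807 and chrX:7319359-7319608; Clcn4 and Clcn5 each have 2 annotated starts, of which the first listed is shown. Over the windows of 250 bases before to 50 after each start and on both strands, TAATCC occurred in Cacna1c, Cacna1s, Cacng8 and Scn7a (8% of the 50 genes, against 8.14% of all 27025 genes in the table). CAGATG occurred in 5 of the 50 (10%, against 19.2% of all genes), among them Scn7a and Cacna1c, and TGACGTCA in Clcn3 and Clcn4 (4%, against 2.03%). No motif overlaps another in the printed runs. These matches describe the letters of the windows only.

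**Figure D1:**
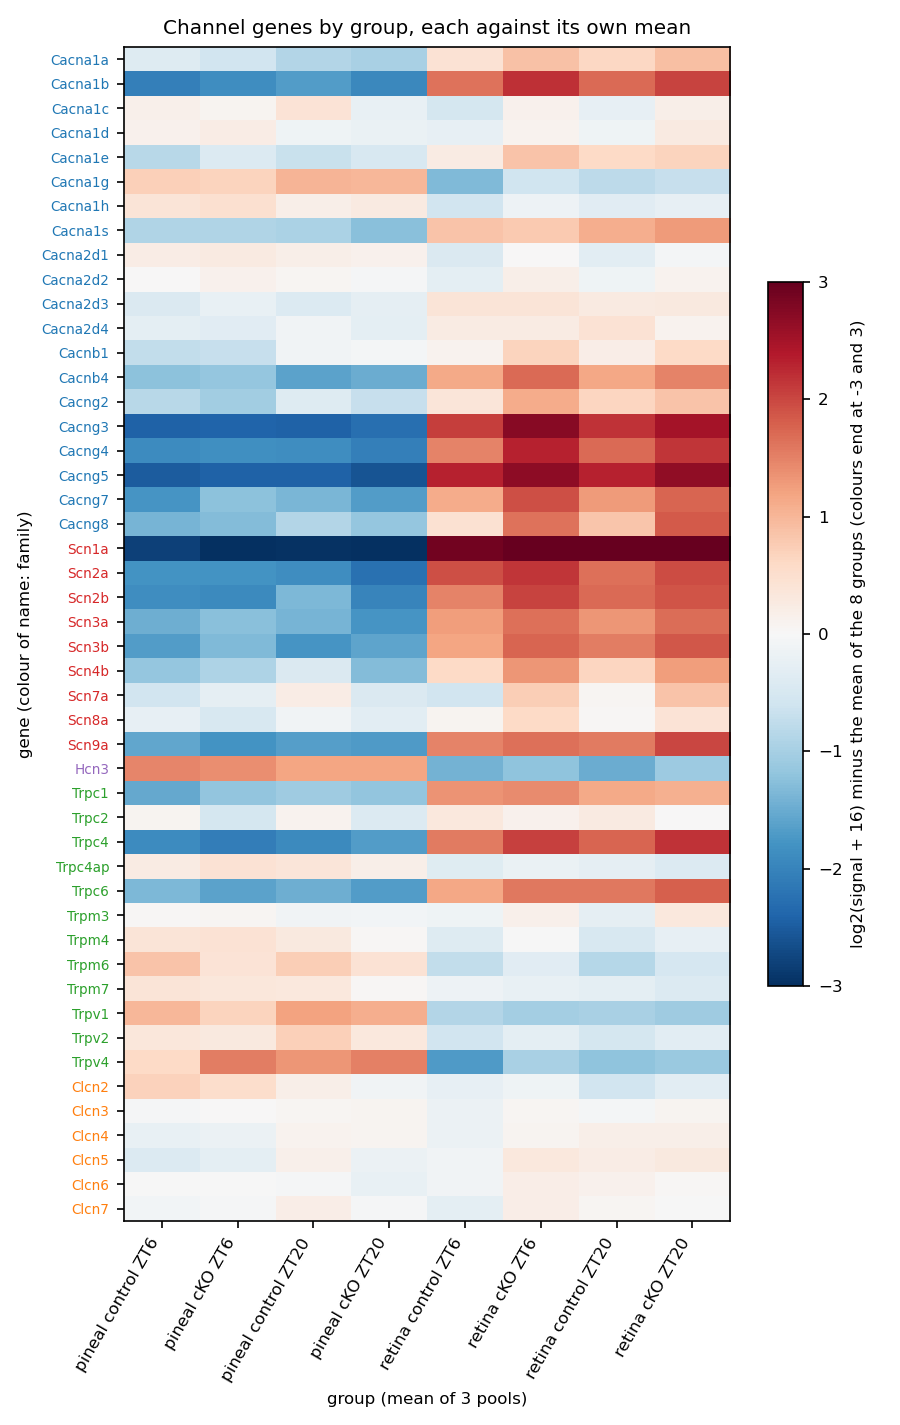
Heat map of the 48 genes that entered a test (rows, names coloured by family) in the 8 groups (columns, mean of 3 pools), as log2(signal + 16) minus the gene's mean over the 8 groups, with colours ending at -3 and 3. The main division is between the tissues: Scn1a, Cacng3 and Cacng5 are low in all 4 pineal groups and high in all 4 retinal groups, and Hcn3 is the reverse.

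The division between the tissues was compared first, in control animals and averaged over both times. Sodium channels and TARPs were the families that stood higher in the retina, while the HCN gene Hcn3, the T-type calcium channel gene Cacna1g and all 3 TRPV genes tested were higher in the pineal gland. The 3 TRPV genes could enter the test through the pineal gland alone. Of 48 genes tested, 25 were higher in the retina, against 23.1% of all genes tested, and 15 were higher in the pineal gland, against 51.2% of all genes. The median difference was 0.39 over these genes and -0.27 over all genes, and the control arrays had median signals of 145.2 and 144.7 in the pineal gland and 119.4 and 125.5 in the retina at ZT6 and ZT20; after quantile normalisation the calls were 29 and 13, with a median of -0.04 over all genes. A gene that entered the test through 1 tissue only had to differ between tissues, so these counts are a description. The scaling changed few of these calls, since 38 of the 40 passed under each of 4 scalings. The exceptions were Clcn3, whose sign turned under the other scalings (0.05 after quantile normalisation), and Cacna2d2 (-0.25 as deposited and 0.00 after quantile normalisation). Quantile normalisation added Clcn4, Clcn5, Clcn6 and Trpc2, all as higher in the retina.

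Among sodium channel pores, Scn1a, an alpha subunit of neuronal axons, had signals of 2944, 2858 and 3012 in the control retinal pools at ZT6 and 2829, 3011 and 3547 at ZT20. In the control pineal pools it read 25.2, 24.2 and 94.9 at ZT6 and 58.1, 33.9 and 19.6 at ZT20. Every retinal pool was far above every pineal pool, and the difference was 5.82 ± 0.31 on the log2 scale (limma, adjusted p = 2.91e-16). Scn1a could enter the test through the retina alone, so this p is a description only. Within the pineal pools at ZT6, Scn1a was highest in pool 3 of the control (94.9) and pool 3 of the cKO (155.6), the pools in which Gnat1 was highest, against 9.2 to 25.2 in the other 4; the part of retinal RNA in these values was not tested. Without these pools the difference between tissues was 6.06. Scn2a and Scn9a, further alpha subunits, differed by 3.63 and 3.13, and Scn3a, an alpha subunit prominent in early life, by 2.72. The Scn9a probe set is of a type that can bind related transcripts. Among beta subunits, which set the gating and anchoring of the pores, Scn2b differed by 3.21, Scn3b by 3.08 and Scn4b by 1.41. Scn2a, Scn9a, Scn3b and Scn4b too could enter the test through the retina alone.

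Scn8a, the alpha subunit of the axon initial segment and node, was bright in both tissues, at 2461 to 3346 in the control pineal pools and 3253 to 3832 in the control retinal pools. The ranges overlap slightly, and the difference of 0.24 ± 0.08 was the smallest of the sodium channel genes that passed. Scn7a, which encodes the atypical channel Nax, a sodium-level sensor of glia, did not pass in this comparison; it read 570.3 to 1308 in the control pineal pools and 609 to 1122 in the control retinal pools, ranges that overlap almost wholly. Scn10a and Scn11a, channels of sensory neurons, did not enter a test in either tissue, with 0.7 to 20.7 for Scn10a over all 24 pools.

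The TARPs differed between the tissues by 4.77 for Cacng5, 4.54 for Cacng3, 3.47 for Cacng4, 2.77 for Cacng7, 1.79 for Cacng8 and 1.10 for Cacng2. Cacng5 read 12.6 to 24.7 in the control pineal pools and 698 to 1044 in the control retinal pools. Cacng2, the founding member stargazin, was the only one of the 6 tested in the pineal gland, where control pools held 206 to 481 against 522 to 936 in the retina. Thus all 6 passed in the direction of the retina, although 5 of them could enter the test through the retina alone.

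Among calcium channel pores, the N-type gene Cacna1b differed by 3.52 ± 0.15, from 35.9 to 71.7 in the control pineal pools to 632 to 806 in the control retinal pools. Cacna1s, the L-type pore known from skeletal muscle, differed by 1.90, Cacna1e (R-type) by 1.17 and Cacna1a (P/Q-type) by 1.16, all higher in the retina. Of these, Cacna1b, Cacna1s and Cacna1a could enter the test through the retina alone. The T-type genes were higher in the pineal gland. Cacna1g read 1261, 1663 and 1479.6 in the control pineal pools at ZT6, 1765, 1629 and 2051 at ZT20, 441, 324 and 281 in the control retina at ZT6 and 623, 416 and 513 at ZT20. All 6 pineal pools were above all 6 retinal pools, with a difference of -1.92 ± 0.17 (adjusted p = 1.44e-11, limma), and Cacna1h differed by -0.74. The L-type genes Cacna1c and Cacna1d differed by -0.67 and -0.19, and only the first passed; Cacna1d was bright in both tissues, at 2015 to 2854 over the 12 control pools.

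Auxiliary subunits differed in both directions. Cacna2d4, the alpha2delta subunit of photoreceptor calcium channels, read 2982 to 4776 in the control pineal pools and 4745 to 6219 in the control retinal pools, a difference of 0.54 ± 0.10. The second probe set of Cacna2d4 was at 0.51 and the third, a dimmer one, at -0.25. Cacna2d3 differed by 0.75, higher in the retina, and Cacna2d1, the gabapentin-binding subunit, by -0.58 in the other direction. Cacnb4, a beta subunit, was 2.58 higher in the retina, and Cacnb1 was 0.57 higher by its brightest probe set but -0.082 by the mean of its probe sets.

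Hcn3 was the only HCN gene tested. It read 1952, 2141 and 1813 in the control pineal gland at ZT6 and 1239, 1718 and 1888 at ZT20, against 342, 211 and 214 and 288, 188 and 244 in the retina. No pineal pool came near the retinal range, and the difference was -2.78 ± 0.19 (adjusted p = 5.55e-14, limma). Hcn2 stayed at 25.7 to 80.7 in the pineal pools and 44.8 to 117 in the retinal pools, and did not enter a test.

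Of 12 TRP genes tested, 3 passed as higher in the retina and 7 as higher in the pineal gland. Higher in the retina were the canonical channels Trpc4 (3.55), Trpc6 (2.78) and Trpc1 (2.55), which open downstream of phospholipase C; Trpc1 read 389 to 719 in the control pineal pools and 3123 to 4004 in the control retinal pools. Higher in the pineal gland were Trpv4 (-2.42), an osmotically and mechanically opened channel, Trpv1 (-2.03), the capsaicin receptor, and Trpv2 (-1.07). Of the TRPM genes, Trpm6 (-1.58), a magnesium-permeable channel, Trpm4 (-0.79) and Trpm7 (-0.58) were also higher in the pineal gland, as was Trpc4ap (-0.62). Trpm3, a heat- and steroid-gated channel gene, was bright in both, at 2732 to 4449.6 in the control pineal pools and 2830.5 to 3973 in the control retinal pools, and did not pass (-0.17). Its probe sets disagreed in size: the second was at -0.37 and the other 4 at -1.02 to -1.28, higher in the pineal gland. Trpm6, Trpv1, Trpv2 and Trpv4 were the 4 genes that entered tests in the pineal gland and not in the retina. Trpc4 and Trpc6 entered tests in the retina and not in the pineal gland. For these genes the filter left little room for the other direction. A split by subfamily can therefore not be read from the calls.

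The ClC genes were the family least divided by tissue as deposited. Clcn3, an endosomal exchanger, read 8622 to 9996 in the control pineal pools and 8138 to 9071 in the control retinal pools, and Clcn4, its close relative, 2043 to 3141 and 2179 to 3037. Only Clcn2, a plasma membrane channel, differed by more than 0.2, at -0.85 ± 0.18, higher in the pineal gland. Clcn5, Clcn6 and Clcn7, of endosomes and lysosomes, differed by 0.19, 0.02 and -0.17 and did not pass as deposited. After quantile normalisation Clcn4, Clcn5 and Clcn6 passed as higher in the retina, so these calls depend on the scaling.

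**Figure D2:**
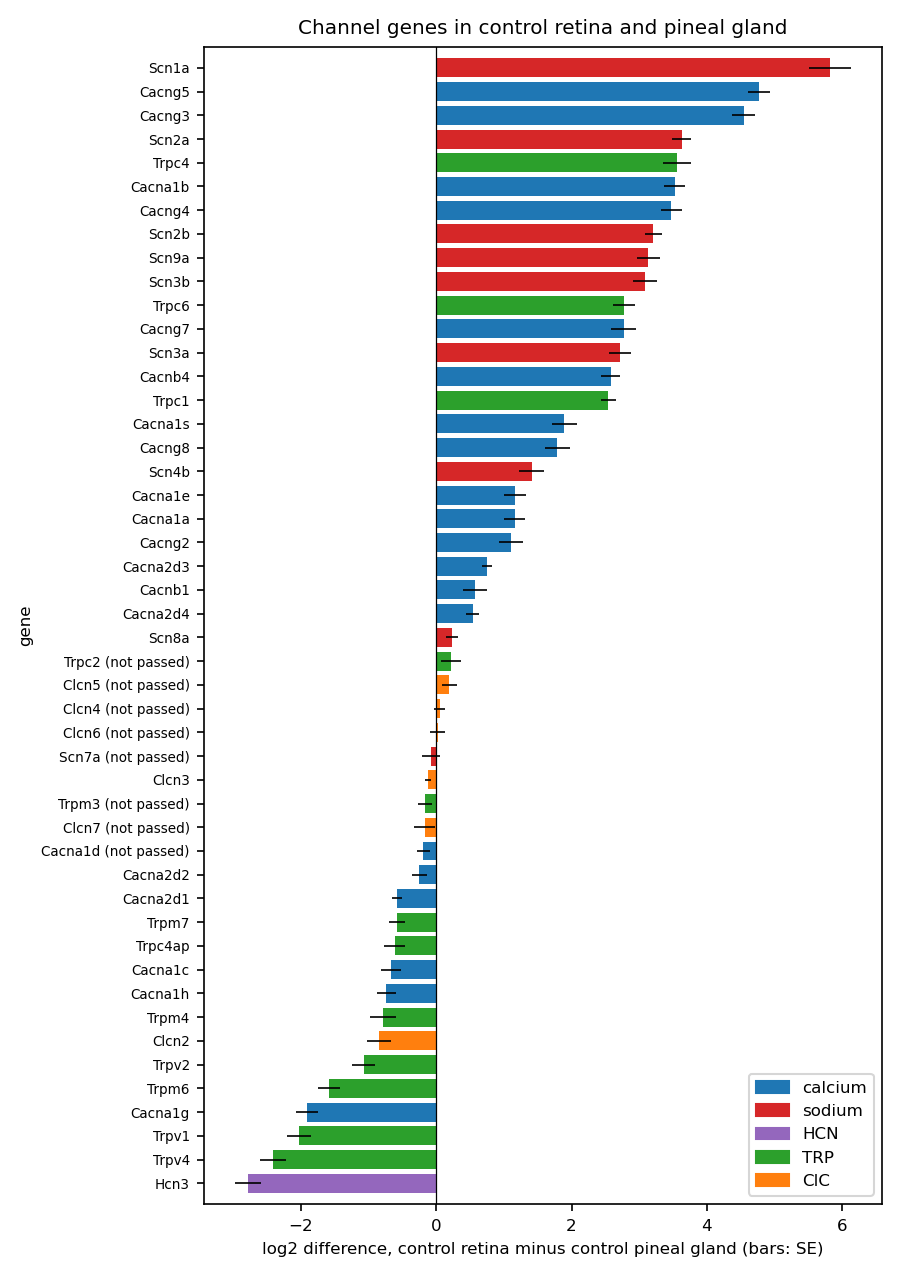
Bars give the log2 difference between control retina and control pineal gland (mean of both times, 6 pools each) for the 48 genes tested, with the SE and coloured by family; genes that did not pass are marked. Scn1a is at 5.82 at the retinal end and Hcn3 at -2.78 at the pineal end.

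In the pineal gland at ZT6, the loss of Neurod1 was accompanied by little change in these genes at their brightest probe sets. Trpv4 was the 1 gene of 32 tested that passed as higher, against 0.701% of all 11984 genes, and none passed as lower, against 1.1%; 2 of the 32 had an unadjusted p under 0.05, Trpv4 and Trpc2. Trpv4 read 120.1, 286 and 168 in the control pools and 324, 435 and 316 in the cKO pools. All 3 cKO pools were above all 3 control pools, by 0.92 ± 0.23 (adjusted p = 0.0111, limma). The call did not hold after quantile normalisation (1.06, adjusted p = 0.0621) or trimmed-mean scaling (0.91, adjusted p = 0.0934), nor without control pool 1 (0.65, adjusted p = 0.381), control pool 3 (0.87, adjusted p = 0.0728) or cKO pool 2 (0.77, adjusted p = 0.106). It was also lost when limma was run with no variance trend. Median centring gave 11 genes higher and none lower, beside 33.6% of all genes higher; the median array signal of these groups was 145.2 ± 14.5 (SD, n = 3) in control and 121.5 ± 8.32 (SD, n = 3) in cKO.

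Trpv4 is known as a channel of the choroid plexus epithelium, which lies against the pineal gland. The 7 choroid plexus markers (Ttr, Kl and others) summed to 24192, 31886 and 26821 in the ZT6 controls and 37313, 40246 and 36416 in the ZT6 knockouts, and 6 of the 7 passed as higher in the cKO as deposited, 0 after quantile normalisation. At ZT20 the same sum was 34988, 36087 and 24398 in control and 29367, 38543 and 29281 in cKO, where Trpv4 read 396, 347 and 210.4 and 299.8, 435 and 328. The pool with the highest marker sum was also the pool with the highest Trpv4 signal in both cKO groups and in the control at ZT6, but not in the control at ZT20. No choroid plexus marker was at 0 in any pool. The part of choroid plexus RNA in the Trpv4 result was not tested.

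**Figure D3:**
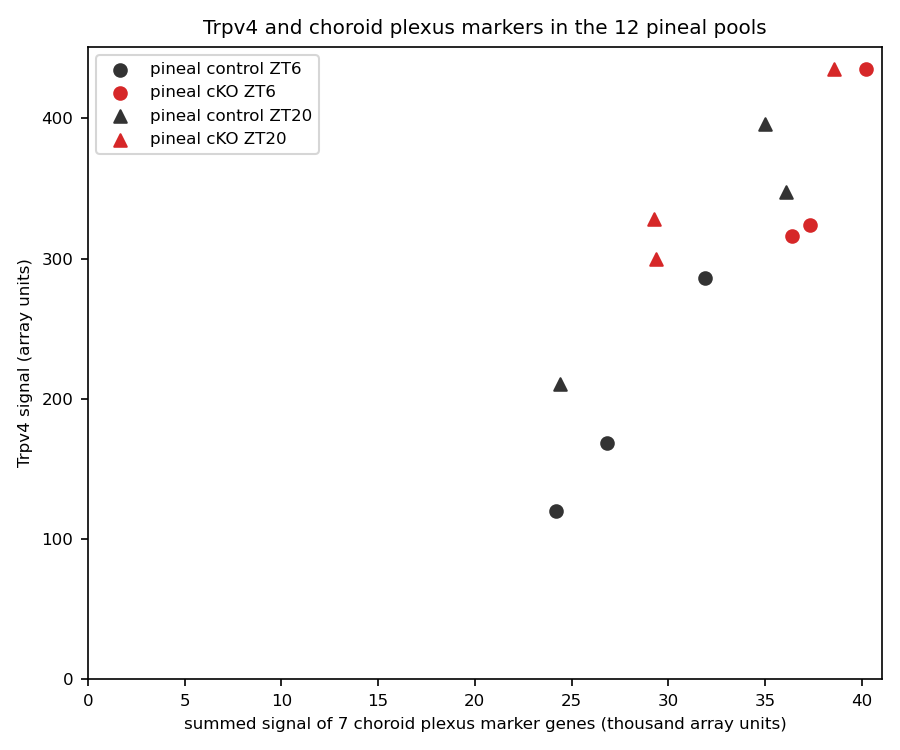
Each point is 1 of the 12 pineal pools, with the summed signal of 7 choroid plexus marker genes on the x axis (in 1000 array units) and the Trpv4 signal on the y axis (array units); shapes give the time and colours the genotype. The 3 control pools at ZT6 lie at Trpv4 signals of 120.1 to 286 and the 3 cKO pools at ZT6 at 316 to 435, where the marker sum is higher too.

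The remaining 31 genes did not pass in the pineal gland at ZT6. Trpc2, a channel gene of the vomeronasal organ, read 274, 236 and 284 in control and 204, 179 and 132 in cKO, with no overlap but an adjusted p of 0.224. Among pores, Cacna1d read 2362, 2854 and 2843 in control and 2788, 2926 and 2850.2 in cKO, Hcn3 had a difference of -0.09 ± 0.18 and Cacna1g of -0.03 ± 0.18. Cacna2d4 had a difference of -0.04 ± 0.13 and Trpm7, a magnesium-permeable channel fused to a kinase, of -0.06 ± 0.17. Dimmer probe sets of Trpm7 were at -0.15, -0.13 and -1.06, the last with means of 372.5 in control and 178.6 in cKO. Those of Trpm3 disagreed in sign, from -0.68 to 0.46.

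At ZT20 none of the 32 genes passed in the pineal gland (limma), against 0.00834% of all genes higher and 0.943% lower; 4 had an unadjusted p under 0.05, and quantile normalisation and median centring called none either. Those 4, Scn7a, Cacna1c, Scn2b and Trpc2, all had lower means in the cKO. Scn7a read 1039.9, 1308 and 1170.1 in control and 583, 845 and 830.3 in cKO, without overlap, a difference of -0.64 ± 0.19 (adjusted p = 0.0907). Scn2b read 309.7, 339.8 and 343 and 158, 198 and 281, and the lowest of these pools was cKO pool 1, the one with little Neurod1. With cKO pool 1 as the lone cKO sample, 3 genes passed as lower as deposited, among them Scn2b (-0.99, adjusted p = 0.0331) and Cacna1c (-0.94, adjusted p = 0.0306), but 0 after quantile normalisation of the same arrays (-0.59 and -0.55, adjusted p = 0.42 and 0.419). Of 8 fibroblast and meninges markers 4 passed as lower in this comparison as deposited, with sums of 26114 to 35373 in control and 20099 to 26913 in cKO, and of 9 endothelium and mural markers 3 did (15961 to 20049 and 11782 to 14882). None of either list passed after quantile normalisation, no marker was at 0, and their part in the values above was not tested. Single pools mattered too, since 4 genes passed as lower without cKO pool 3 and 2 without control pool 1.

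Between day and night in the control pineal gland, Scn7a rose at ZT20, as did Clcn5 with an adjusted p near the threshold. Of 32 genes, 3 passed as higher, against 5.13% of all genes, and 0 as lower, against 3.13%. Scn7a read 570.3, 579 and 897 at ZT6 and 1039.9, 1308 and 1170.1 at ZT20, every night pool above every day pool, by 0.79 ± 0.19 (adjusted p = 0.00243, limma). It passed under each of 4 scalings and without any single pool (adjusted p of at most 0.05), but its change over the mean of all its probe sets was 0.54 (adjusted p = 0.1).

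Clcn5, the endosomal exchanger whose loss causes Dent disease, read 629.7, 779 and 934 by day and 1120.5, 1093 and 1223 by night. The groups did not overlap and the change was 0.56 ± 0.19 (adjusted p = 0.0433), again under each of 4 scalings (0.00278 after quantile normalisation). As deposited it lay near the threshold: the adjusted p was 0.265 without day pool 1, 0.107 without day pool 2, and 0.0668, 0.0718 and 0.177 without night pools 1, 2 and 3. By the mean of all its probe sets Clcn5 did not pass. A second probe set of Clcn5 had a change of 0.81, while the other 2 had group means under 30 array units. Trpv4 also passed (0.72 ± 0.23, adjusted p = 0.029), although its pools overlapped. Its call was lost under the other 3 scalings and without day pools 1 or 3 or night pools 1 or 2, with adjusted p between 0.0858 and 0.384. Only 1 gene passed without day pool 1 and only 1 without night pool 2.

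The other scalings called more genes at night. After quantile normalisation 5 were higher and 2 lower, beside 12.3% and 13.5% of all genes. The higher ones included Clcn4 (0.28, adjusted p = 0.0105), Scn2b (0.51, adjusted p = 0.0153) and Trpc1 (0.44, adjusted p = 0.0127). Clcn4 read 2043, 2552 and 2248 by day and 2657, 2774 and 3141 by night, and Scn2b 203, 224 and 260.0 and 309.7, 339.8 and 343; neither overlapped. The lower ones were Clcn2 (-0.57, adjusted p = 0.00633) and Cacna1d (-0.30, adjusted p = 0.00357). Their direction was the same as deposited, at -0.52 and -0.24.

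In the cKO pineal gland, Clcn2 fell at night. It was the 1 gene that passed, as lower, against 8.34% of all genes, and none passed as higher, against 2.83%. Clcn2 read 709.9, 784 and 491 at ZT6 and 356, 368 and 548 at ZT20, with 1 overlapping pair of pools, a change of -0.62 ± 0.20 (adjusted p = 0.0277). It passed under each of 4 scalings with all pools. The call was lost, with adjusted p between 0.151 and 0.203, without day pools 1 or 2 or night pools 1 or 2. In control glands Clcn2 read 664, 803 and 740.2 by day and 427, 603 and 506 by night (-0.52 ± 0.20, adjusted p = 0.094). The count was 4 without night pool 3. With night pool 1 as the lone night sample 6 passed, all lower, as deposited, including Clcn2 (-0.84), Cacna1d (-0.59), Hcn3 (-0.58) and Trpm7 (-0.58). After quantile normalisation of the same arrays 1 gene passed, as higher, and Clcn2 was at -0.50 (adjusted p = 0.116). After quantile normalisation 3 were higher (Clcn4, Cacna1g and Scn8a) and 2 lower (Clcn2 and Cacna1d).

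The change of the night-day difference with genotype passed for none of the 32 genes in the pineal gland (limma), against 0.1% of all genes in the higher and 0.142% in the lower direction. Unadjusted p was under 0.05 for 2, Scn7a and Trpv4, and quantile normalisation called none. Scn7a had the night-day change of 0.79 in control and -0.16 in cKO, a difference of -0.96 ± 0.27 (adjusted p = 0.133). Without control night pool 1, 1 gene passed as lower, as did 1 without cKO night pools 2 and 3 (0 after quantile normalisation of those arrays).

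**Figure D4:**
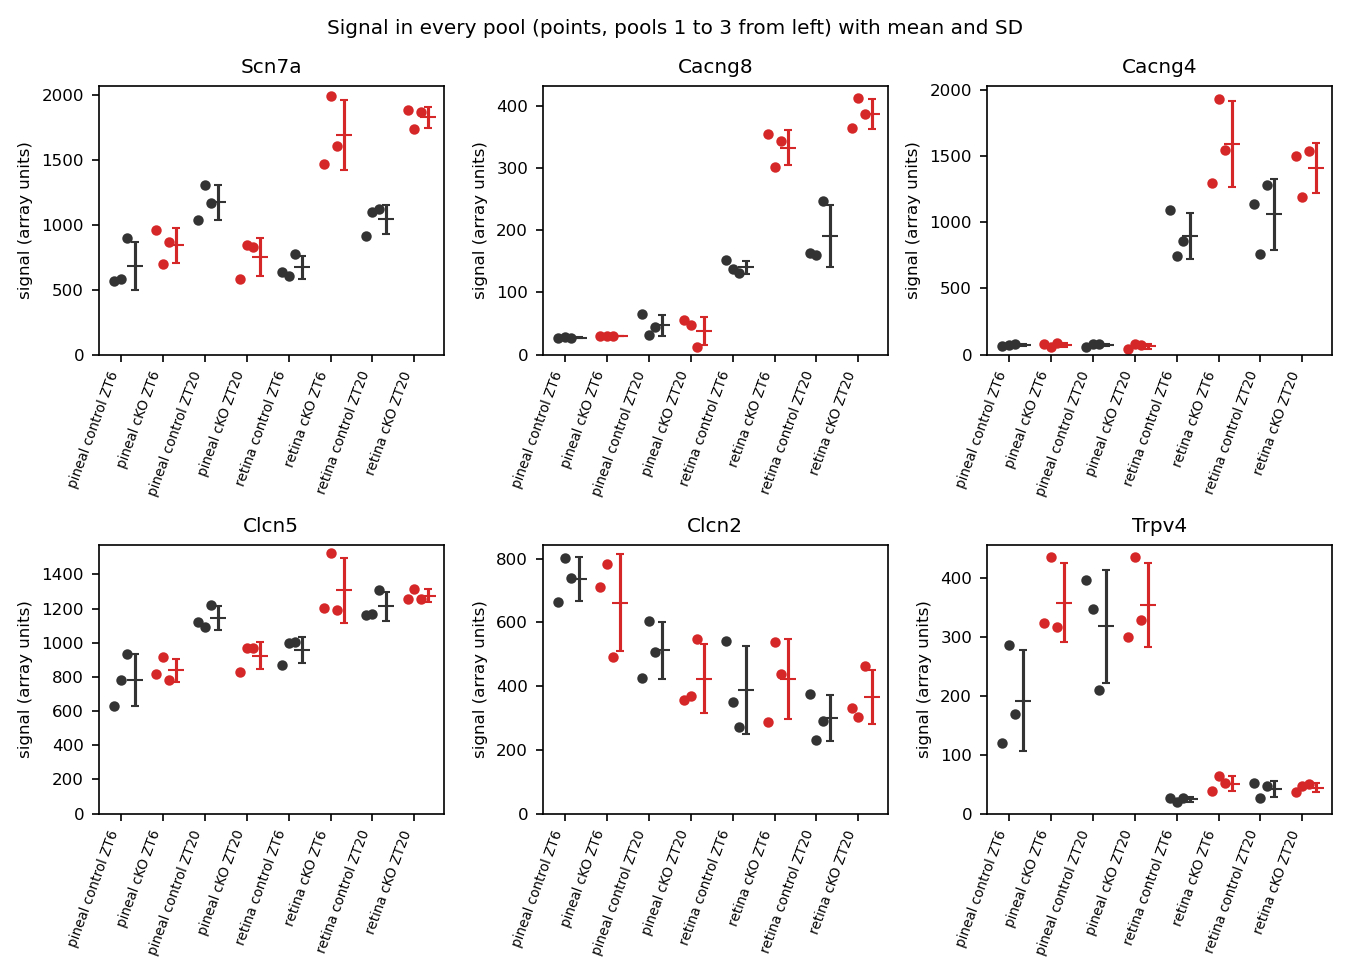
Signal (array units, linear axis from 0) of Scn7a, Cacng8, Cacng4, Clcn5, Clcn2 and Trpv4 in each of the 24 pools, with control in black and cKO in red; the mark beside each group is the mean and SD of its 3 pools. In the retina the cKO pools of Scn7a (1470.3 to 1994) lie above all control pools (609 to 1122), and in the control pineal gland the night pools of Scn7a (1039.9 to 1308) lie above the day pools (570.3 to 897).

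In the retina at ZT6, Scn7a and the TARP genes Cacng8 and Cacng4 rose with the loss of Neurod1 under every scaling, and most other calls were lost under other scalings. As deposited, 18 of 44 genes passed as higher, against 22.8% of all 11748 genes, and none as lower, against 1.12%. By symbol they were 11 of 20 calcium channel genes, 5 of 9 sodium channel genes, 2 of 6 ClC genes, 0 of 8 TRP genes and 0 of 1 HCN gene. Among the 11 were the TARP genes Cacng2, Cacng3, Cacng4, Cacng7 and Cacng8, which encode subunits of AMPA receptors. The cKO arrays were brighter, with medians of 153.0 ± 26.4 (SD, n = 3) against 119.4 ± 8.72 (SD, n = 3), and the median change was 0.29 over all genes and 0.42 over these. After quantile normalisation 5 passed as higher and 2 as lower, beside 9.55% and 7.12% of all genes, and after median centring 3 and 2. Of the 18, 3 passed under each of 4 scalings. The count as deposited was 5 without control pool 2, 8 without control pool 3, 6 without cKO pool 2, 10 without cKO pool 3 and 9 with a replicate block. Control pool 2 is the pool of its group in which muscle markers were high.

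Scn7a read 637, 609 and 775 in the control pools and 1470.3, 1994 and 1607 in the cKO pools at ZT6. The lowest cKO pool was above the highest control pool by a wide margin, and the change was 1.30 ± 0.16 (adjusted p = 4.27e-05, limma), or 1.00 after quantile normalisation (adjusted p = 0.00031). Its second probe set had a change of 1.74. At ZT20 the pools read 916, 1095 and 1122 in control and 1882, 1736 and 1866 in cKO. The groups were again apart, by 0.80 ± 0.16 (adjusted p = 0.00497), or 0.68 after quantile normalisation. With cKO pool 1 alone, in which Neurod1 was low, the change at ZT20 was 0.85 (adjusted p = 0.0687). The promoter of Scn7a is the one shown above with TAATCC in its distal part. Its window also holds CAGATG on the opposite strand, beginning at base -5 from the start and running past the printed end.

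Cacng8, a TARP of AMPA receptors, read 152, 137 and 132 in control and 354, 301 and 343 in cKO at ZT6, and 163, 160.2 and 247 and 363, 412 and 386 at ZT20. At both times all cKO pools were above all control pools. The change was 1.16 ± 0.21 at ZT6 (adjusted p = 0.00121) and 0.99 ± 0.21 at ZT20 (adjusted p = 0.0072). Quantile normalisation left 0.84 and 0.79. Its second probe set was dim, with means of 10.8 to 17.5 in the retinal groups, and the night change was 0.91 with cKO pool 1 alone (adjusted p = 0.151).

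Cacng4 read 1091, 746 and 856 in control and 1295, 1937 and 1547 in cKO at ZT6, without overlap. The change of 0.81 ± 0.21 (adjusted p = 0.0125) was 0.51 after quantile normalisation, and that of its second probe set was 1.02. The call was lost without control pool 2 (adjusted p = 0.0736) or cKO pool 2 (adjusted p = 0.0769). At ZT20 the pools read 1137, 761 and 1285 and 1505, 1194 and 1536 and overlapped, with a change of 0.43 ± 0.21 that did not pass. The other TARPs that passed as deposited at ZT6 were Cacng7 (0.81), Cacng2 (0.76) and Cacng3 (0.66), and after quantile normalisation their adjusted p was 0.0524, 0.0501 and 0.09. Cacng5, which did not pass, had a difference of 0.38 ± 0.18.

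Among sodium channels, Scn8a and Scn2b passed at ZT6 as deposited and after quantile normalisation, but not after median centring. Scn8a read 3253, 3832 and 3418 in control and 4758, 5784 and 4419.6 in cKO, a change of 0.50 ± 0.11 that became 0.32 after quantile normalisation (adjusted p = 0.0351). Scn2b read 2705, 2131 and 2645 and 3287, 3888 and 3561, and changed by 0.52 ± 0.13, or 0.29 after quantile normalisation (adjusted p = 0.0318); without control pool 2 its adjusted p as deposited was 0.062. Neither gene's pools overlapped. Scn4b (0.72) and Scn3a (0.39) passed as deposited only. Scn1a, Scn3b, Scn2a and Scn9a did not pass, with Scn1a at 2944, 2858 and 3012 in control and 3517, 3844 and 3384 in cKO.

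The calcium channel pores Cacna1c (0.66), Cacna1b (0.57) and Cacna1d (0.35), the subunits Cacnb4 (0.55), Cacna2d2 (0.48) and Cacna2d1 (0.43), and the exchangers Clcn5 (0.44) and Clcn3 (0.24) made up the rest of the 18. None of these 8 passed after quantile normalisation, where Clcn3 was at 0.15 and Cacna1c at 0.32; Clcn3 was at -0.072 after median centring. Cacna1c read 252, 256 and 248 in control and 324, 555 and 372 in cKO, and cKO pool 2, the array with the highest median signal (183.1), was also the highest for Cacna1b, Cacng4 and Scn7a. Trpm7 was at 1738, 1661 and 1373 and 1419.7, 1888 and 1317, and Trpc2 at 377, 351 and 242 and 248, 380.0 and 219. Their pools overlapped as deposited, and both passed as lower after quantile normalisation, by -0.35 (adjusted p = 0.04) and -0.54 (adjusted p = 0.0429).

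Markers of other retinal cells moved in the same comparison. Of 10 Mueller glia markers, 9 passed as higher in the cKO at ZT6 as deposited and 8 after quantile normalisation; their summed signal was 42919 to 50296 in the control pools and 61539 to 69980.0 in the cKO pools. All 8 tested microglia markers passed as higher under both, with sums of 3069 to 3859 and 9924 to 15668. Of 8 cone markers, 3 passed as lower and 2 as higher (5 and 2 after quantile normalisation), and of 10 rod markers 0 passed as lower and 1 as higher (2 and 0 after quantile normalisation). Of 7 amacrine markers tested 4 passed as higher, 1 after quantile normalisation, and of 7 ganglion cell markers 2 and 0. No marker of these lists was at 0 in any retinal pool, and their part in the changes of Scn7a, Cacng8 and Cacng4 was not tested.

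**Figure D5:**
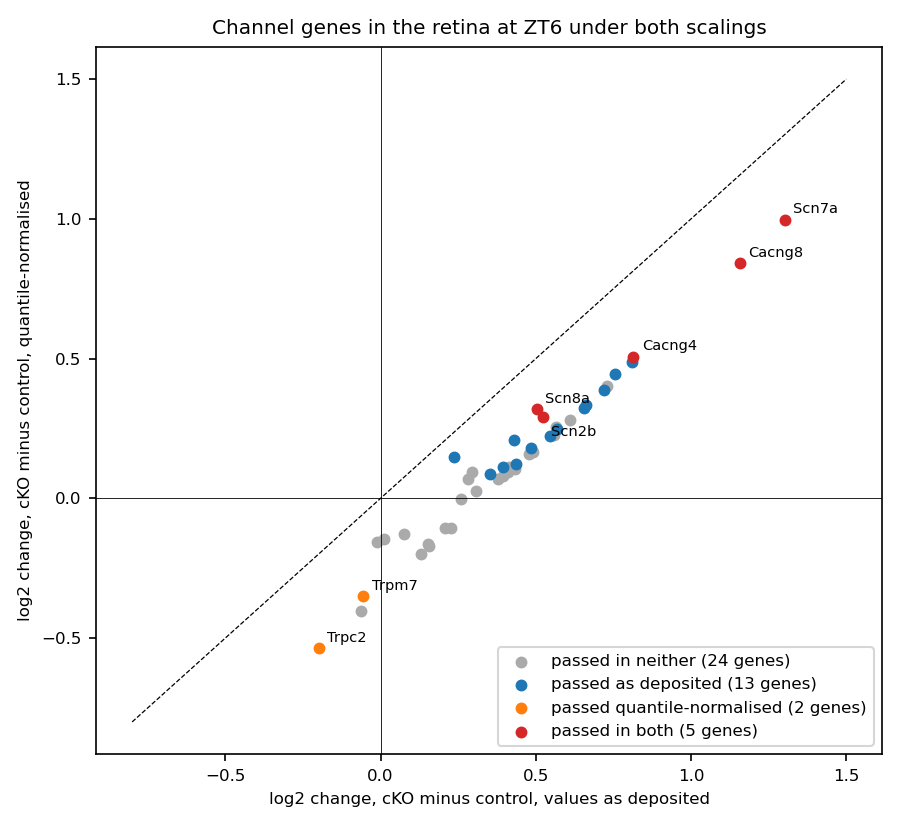
Each point is 1 of the 44 genes tested in the retina at ZT6, with the log2 change from control to cKO as deposited on the x axis and after quantile normalisation on the y axis; the dashed line marks equal values and colours show where the gene passed. All points lie below the line; Scn7a, Cacng8, Cacng4, Scn8a and Scn2b passed on both axes, and Trpc2 and Trpm7 on the y axis only.

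In the retina at ZT20, Cacng8, Scn7a and Trpm3 passed as higher in the cKO, 3 of 44 against 5.48% of all genes, and none passed as lower, against 1.02%. Trpm3 read 3973, 2922 and 2830.5 in control and 4746, 4318 and 5255 in cKO, without overlap. Its change of 0.57 ± 0.13 (adjusted p = 0.0117) held in 3 of 4 scalings and not with median centring (0.36). The call was lost without control pool 2 (adjusted p = 0.0689), control pool 3 (0.0668) or cKO pool 1 (0.0578), and with cKO pool 1 alone 0 genes passed. At ZT6 Trpm3 did not pass (0.29 ± 0.13), with 3608, 3524 and 3359 in control and 3759.6, 4759 and 4419 in cKO.

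After quantile normalisation the calls at ZT20 were 4 higher, adding Cacna1d, and 1 lower, Cacna2d4. Cacna1d, an L-type pore, read 2108, 2108 and 2558 in control and 3026, 2761 and 3109.7 in cKO, a change of 0.40 as deposited and 0.29 after quantile normalisation (adjusted p = 0.0355). Cacna2d4 read 6069, 5617 and 6219 and 4448, 4254 and 5524, every cKO pool below every control pool. Its change was -0.34 ± 0.13 as deposited (adjusted p = 0.133) and -0.41 after quantile normalisation (adjusted p = 0.0184). At ZT6 the same gene read 5716, 5302 and 4745 and 4649.9, 6465 and 4663, with wide overlap. Without cKO pools 2 and 3 the change of Cacna2d4 was -0.42 as deposited (adjusted p = 0.175) and -0.55 after quantile normalisation (adjusted p = 0.0167), and that of Cacna1d was 0.43 as deposited (adjusted p = 0.292). Cone markers, 4 of 8 lower and 1 higher (5 and 1 after quantile normalisation), and rod markers, 3 of 10 lower and 0 higher (5 and 0), passed at ZT20 as well. So did 6 of 10 Mueller glia markers (sums of 48676 to 57348 in control and 60985 to 70837 in cKO) and all 8 tested microglia markers (3112 to 4448 and 9454 to 15103), each as higher. Their part in the changes at ZT20 was not tested.

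Between day and night the retina showed no call among these genes (limma). In controls 0 of 44 passed in either direction, against 0.0681% of all genes higher and 0.034% lower, with 3 at an unadjusted p under 0.05. These were Scn7a, at 637, 609 and 775 by day and 916, 1095 and 1122 by night (0.62 ± 0.16, adjusted p = 0.152), Clcn4 (0.36) and Clcn5 (0.34). All 3 had night pools above every day pool. In cKO retinas 0 of 44 passed, against 0.0255% in each direction, and only Trpc1 (-0.35) had an unadjusted p under 0.05. The change of the night-day difference with genotype passed for 0 of 44, against 0% of all genes in each direction, with Scn7a alone at an unadjusted p under 0.05 (-0.50 ± 0.23). Quantile normalisation called none in any of these comparisons, nor did the fit without cKO night pools 2 and 3 in the 2 that use them.

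The change with genotype was then compared between the tissues, averaged over both times, in a fit of all 24 arrays. Scn7a and Cacna1c differed under each of 4 scalings, with the more positive change in the retina. As deposited 12 of 48 genes passed as higher in the retina, against 20.2% of all genes, and none as lower, against 0.696%. The count followed the scaling: 3 higher and 2 lower after quantile normalisation, beside 8.68% and 7.22% of all genes, and 2 and 9 after median centring, beside 5.6% and 35.1%. For Scn7a the difference was 1.22 ± 0.19 (adjusted p = 2.15e-05), 0.91 after quantile normalisation, and 1.41 without cKO night pools 2 and 3 (0.97 after quantile normalisation of those arrays). The comparisons behind it were 1.30 and 0.80 in the retina and 0.32 and -0.64 in the pineal gland.

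For Cacna1c, an L-type pore, the difference was 0.90 ± 0.21 (adjusted p = 0.00232) and 0.48 after quantile normalisation. Its pools read 411, 594 and 505 in control and 251, 292 and 412 in cKO pineal glands at ZT20, with 303, 281 and 347 and 433, 372 and 464 in the retina. All retinal cKO pools were above the retinal controls and the pineal pools overlapped, with the lower mean in the cKO; neither contrast alone passed at ZT20. Without cKO night pools 2 and 3 it was 1.07 (adjusted p = 0.00306). Scn8a differed by 0.66 ± 0.12, or 0.74 without those pools, and passed in 3 of 4 scalings. The others that passed as deposited were Cacng8 (1.17), Scn4b (1.00), Cacng2 (0.75), Trpm6 (0.72), Scn2b (0.69), Cacng4 (0.69), Trpm3 (0.40), Cacna1d (0.37) and Cacna2d1 (0.35); the last 3 of these turned sign after median centring. Cacng8, Scn4b and Cacng4 were too dim to enter a test in the pineal gland alone, and Trpm6 in the retina alone. Their change in the dimmer tissue is limited by signal over background. Without retinal cKO pool 2 at ZT6, or pool 1 at ZT20, 7 genes passed. Markers of other cells passed as higher in this comparison too: 10 of 10 for microglia (10 after quantile normalisation), 7 of 10 for Mueller glia (5), 5 of 8 for fibroblasts and meninges (2) and 4 of 9 for endothelium and mural cells (2). None was at 0 in any pool, and their part in these differences was not tested.

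A list of 43 partner genes (calcium pumps, exchangers, sensors, store channels and channel-binding proteins) gives the setting. In the control tissues 17 of 38 tested were higher in the retina and 16 in the pineal gland (19 and 14 after quantile normalisation), against 23.1% and 51.2% of all genes. Within the tissues, 30 partners entered tests in the pineal gland and 37 in the retina. Some could thus enter this comparison through 1 tissue alone, and these counts too are a description. The largest differences were those of Stac2 (5.86), Cabp4 (5.74), which tunes photoreceptor calcium channels, and Pex5l (5.74), the TRIP8b subunit of HCN channels. On the pineal side stood the store-operated channel genes Orai1 (-2.27) and Orai3 (-2.04) and the calcium pumps Atp2b3 (-2.35) and Atp2b4 (-2.24).

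At night in the control pineal gland 4 of 30 partners passed as higher and 1 as lower (6 and 4 after quantile normalisation), against 5.13% and 3.13% of all genes. Cabp1, a calcium-binding regulator of channels, rose by 1.49 ± 0.19 and Gem, a small GTPase that restrains calcium channels, by 1.15 ± 0.18. In cKO glands 4 passed as higher and 4 as lower (6 and 4 after quantile normalisation), against 2.83% and 8.34%, with Cabp1 at 1.31 ± 0.19 and Gem at 0.84 ± 0.18. With genotype the 1 partner that passed in the pineal gland at ZT6 was the pump Atp2b4 (-0.84 ± 0.20), against 1.1% of all genes lower, and 0 of 30 passed at ZT20. In the retina 16 of 37 passed as higher at ZT6 and 0 as lower, or 4 and 2 after quantile normalisation, against 22.8% and 1.12% of all genes as deposited, with the sodium-calcium exchanger Slc8a1 at 0.86 ± 0.15. At ZT20 the 2 that passed were lower, against 1.02% of all genes, Cabp4 (-0.57 ± 0.17) and the rod exchanger Slc24a1 (-0.35 ± 0.09).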

How the data were processed

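RNA of 24 pools was amplified, labelled and hybridised to Affymetrix mouse expression arrays. The deposited values are linear signal intensity per probe set, made by the authors with GCOS, per the submitters' processing notes. Their scaling of the arrays is not stated in what was used here. Of 45101 probe sets, 64 were controls, 34945 had 1 gene symbol and 932 several; only those with 1 symbol were used, through the platform annotation, 1 probe set per gene (the highest mean over 24 arrays). Probes of 1 set were not re-examined, and signals of different genes are not comparable. No pair of arrays shared more than 0.494% identical values.

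Values were taken as log2(signal + 16) and tested with limma 3.58.1 in R 4.3.3 (lmFit, contrasts.fit and eBayes with a variance trend), within each tissue (12 arrays) or over all 24 arrays, on genes above the array's median on at least 3 arrays of the fit. There were 12 comparisons, with Benjamini-Hochberg adjustment over all genes of each and a threshold of 0.05. Array number limits the precision: an exact permutation test of 3 against 3 pools cannot go below p = 0.1, and none was used. The procedure was tested on simulated data.

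The members, marker and partner lists were chosen with earlier results of these data known. Genes were named with values if they passed (all if 12 or fewer, else the 12 largest), were the 2 brightest of a family in a tissue, or stood in a list of channel and partner genes; the others are named for completeness. Some genes of that list are not reported here. Replicate numbers of the pineal pools at ZT6 met the criterion for pairing across genotypes (correlations of deviations from the group means of 0.196, 0.355 and 0.322 for numbers 1 to 3), from the data and not the labels. With a replicate block, Trpv4 still passed there (0.92, adjusted p = 0.00749, limma). Other groups did not meet it. Alternatives were other scalings, pseudocounts, filters, probe set rules, blocks and left-out pools.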

Additional observations from a re-analysis of the deposited data

Results flagged for a closer look

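In 12 of 48 genes, against 20.2% of all genes tested, the change with genotype, averaged over both times, differed between the retina and the pineal gland by a test of the difference itself (limma, all 24 arrays, Benjamini-Hochberg adjustment over all genes). Each value is the retinal change minus the pineal change on the log2(signal + 16) scale. The differences were 1.22 for Scn7a (adjusted p = 2.15e-05), 1.17 for Cacng8 (0.00161), 1.00 for Scn4b (0.00584), 0.90 for Cacna1c (0.00232), 0.75 for Cacng2 (0.0314) and 0.72 for Trpm6 (0.0264). They were 0.69 for Scn2b (0.00596), 0.69 for Cacng4 (0.0259), 0.66 for Scn8a (0.000178), 0.40 for Trpm3 (0.0379), 0.37 for Cacna1d (0.0406) and 0.35 for Cacna2d1 (0.0141). The median over all genes tested was 0.27, and the share of these genes that passed is near that background. Cacng8, Scn4b and Cacng4 were too dim to enter a test in the pineal gland alone, and Trpm6 in the retina alone. Their differences are limited by signal over background. After quantile normalisation Scn7a, Cacna1c and Scn8a passed in the same direction and Cacna2d3 and Trpc1 as lower in the retina; median centring gave 2 higher and 9 lower.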

How the results depend on the processing

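Of 5895 values of named genes under other settings, 5571 kept direction and side of the threshold, 230 lost and 82 gained a call, and 12 turned sign; of these, 2562 leave out a single pool, with 112 lost, 23 gained and 0 turned. Counts of genes passed moved by over 1.5 times as follows, and the cause was not tested. In the pineal gland at ZT6 (1) the genotype count was 11 with median centring and 0 with quantile normalisation, trimmed-mean scaling, no filter, no variance trend, the mean of all probe sets, or pools 3 left out. At ZT20 (0) it was 1 with a replicate block and 3 without cKO pools 2 and 3. For night against day in control (3) it was 6 with median centring, 7 with quantile normalisation, 7 with trimmed-mean scaling, 1 with no filter and 0 with the mean of probe sets. In cKO (1) it was 3, 5 and 5 with those scalings, 0 with no variance trend, 2 with the mean of probe sets, 2 with a replicate block and 6 without pools 2 and 3; the difference of these changes (0) was 1 without them. In the retina the ZT6 count (18) was 5, 7 and 6 with those scalings and 9 with a replicate block. The ZT20 count (3) was 5 with quantile normalisation and 0 without cKO pools 2 and 3. The difference between tissues in the genotype change (12) was 5 with quantile normalisation, 5 with it and without cKO ZT20 pools 2 and 3 (a setting chosen after seeing the data) and 20 with the mean of probe sets. Leaving out 1 pool gave 0 to 1 and 0 to 4 in the pineal gland at ZT6 and ZT20, 1 to 2 and 0 to 4 for night against day in control and cKO, 0 to 1 for their difference, 5 to 22 and 2 to 4 in the retina at ZT6 and ZT20, 39 to 41 between tissues and 7 to 17 for the difference in genotype change. Signs turned for Clcn3 in the retina at ZT6 (-0.072 centred, -0.026 trimmed) and between tissues (0.10 centred, 0.046 quantile, 0.12 trimmed), and for Cacnb1 between tissues (-0.082, mean of probe sets). For the difference in genotype change, median centring turned Trpm3 (-0.12), Cacna1d (-0.16), Cacna2d1 (-0.17), Cacna1e (-0.48), Clcn3 (-0.37) and Trpm7 (-0.44). Outside the pineal gland at ZT6 the replicate numbers pair no groups. Genes below the array medians, such as Cacng8 in the pineal gland (12.5 to 65.1), are limited by signal over background.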
